A study of Homo sapiens with 6 samples.

Results

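The interleukin-6 (IL-6) family genes described here were 9 genes, namely the cytokines IL6, IL11 and LIF, the receptor chains IL6R, IL11RA, IL6ST, LIFR and OSMR, and the feedback inhibitor SOCS3. They were chosen by gene symbol from a table of 24526 genes, and all 9 were in it. Their transcripts were counted by RNA-seq in WM266.4, an established human melanoma cell line. Cells were transfected with a negative control siRNA (neg.si, control.si in the sample labels, 3 libraries) or with an siRNA against RIPK4 (RIPK4.si, 3 libraries), and RNA was taken 48 h later. RIPK4 is a serine/threonine kinase of the receptor-interacting protein family. Each group rests on a single siRNA and on a single cell line, the transfection was transient, and the labels name no cytokine or other stimulus. The study calls the libraries of a group biological replicates, while the labels do not say whether they came from separate cultures.

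Cytokines of the IL-6 family signal through receptor complexes that share the chain gp130, the product of IL6ST. IL-6 and IL-11 first bind a chain of their own, IL-6R or IL-11RA, which then joins gp130, whereas LIF and oncostatin M bring gp130 together with LIFR or OSMR. The assembled receptor activates JAK kinases and the transcription factor STAT3, which induces SOCS3, and SOCS3 in turn blocks the receptor. In melanoma the family is known both for slowing the growth of early lesions and for supporting later ones.

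The sequences below are shown because the transcripts of IL6R and IL11 differed most clearly between the groups and that of IL6 was almost absent. They are promoters from 250 bases before to 50 bases after the RefSeq transcription start (GRCh38.p14), written 5′ to 3′ on the strand of the gene. Capitals mark matches to motifs searched on both strands: TGANTCA (AP-1), GACGTCA (CRE), GGNNTTTCC (part of the NF-kB consensus), TTCNNNGAA (STAT) and TATATAA (a core promoter element).
IL6, chr7:22726950-22727249, plus strand: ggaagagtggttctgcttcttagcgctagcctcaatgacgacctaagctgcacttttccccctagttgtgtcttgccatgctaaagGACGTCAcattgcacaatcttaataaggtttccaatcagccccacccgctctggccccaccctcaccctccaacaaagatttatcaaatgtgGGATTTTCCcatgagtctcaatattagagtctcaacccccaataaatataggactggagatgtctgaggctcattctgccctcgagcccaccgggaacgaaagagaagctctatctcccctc
IL11, chr19:55370414-55370713, minus strand: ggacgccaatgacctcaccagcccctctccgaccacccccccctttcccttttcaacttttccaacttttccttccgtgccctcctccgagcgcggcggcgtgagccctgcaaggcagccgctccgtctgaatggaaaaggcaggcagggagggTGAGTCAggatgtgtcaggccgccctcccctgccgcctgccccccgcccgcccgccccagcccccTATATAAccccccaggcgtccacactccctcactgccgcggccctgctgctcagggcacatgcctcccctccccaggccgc
IL6R, chr1:154405093-154405392, plus strand: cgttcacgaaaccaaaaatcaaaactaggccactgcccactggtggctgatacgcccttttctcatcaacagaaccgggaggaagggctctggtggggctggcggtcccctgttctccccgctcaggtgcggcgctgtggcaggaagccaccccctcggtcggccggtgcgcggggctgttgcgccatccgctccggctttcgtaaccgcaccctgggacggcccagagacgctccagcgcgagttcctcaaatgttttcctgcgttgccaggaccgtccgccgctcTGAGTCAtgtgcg

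The table of promoters held entries for 8 of the 9 genes. The AP-1 letters were in 3 of these 8, IL6R at position 38 after the start, IL11 at position -96 and OSMR at position 4. They were in 7.71% of 35116 human promoters of the same length. These shares are per promoter, while the family count is per gene, and LIFR, IL11RA and SOCS3 have several promoters each. The IL11 promoter also held TATATAA at position -31, which were in 2.57% of promoters. The IL6 promoter held the CRE letters at position -164 and the NF-kB letters at position -72, found in 3.45% and 6.26% of promoters. The STAT letters, found in 7.66% of promoters, occurred among the family promoters searched in LIFR alone, at positions -165 and -182 of 2 of its 3 promoters. The SOCS3 promoters searched (chr17:78359618-78359917 and chr17:78360876-78361175) leave out base 78360077, where the minus-strand gene model of SOCS3 begins. Motifs at that start were therefore not searched. No marked match shares bases with another, and a match in letters says nothing of whether a factor was bound.

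The 3′ untranslated regions (UTRs) are shown by short stretches of 29 bases from the transcripts of GENCODE release 44, with 7 bases in capitals. ACAGCTT was picked in earlier work on these libraries because genes that hold it were lower in RIPK4.si, so what it goes with here is a description.
IL6R, chr1:154468376-154468404, plus strand: ggttaaatacgACAGCTTatcctgctggg
IL6ST, chr5:55935552-55935580, minus strand: aagcagggtgaACAGCTTgagtcctgttg
LIFR, chr5:38480737-38480765, minus strand: gtgatacagtgACAGCTTtatatgagcaa
ADAM10, chr15:58595943-58595971, minus strand: tttttcaaaatACAGCTTtttgtacatga

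The longest 3′ UTR of IL6R is 4070 bases and holds a single copy, as do those of IL6ST (5987 bases) and LIFR (6927 bases). The other 6 family genes held none. The sequence was in 16.0% of the 12963 tested genes with a 3′ UTR, whose median log2 fold change was -0.10, against -0.00063 for genes without it. The 3 family genes that hold it had log2 fold changes of -0.72 (IL6R), -0.25 (LIFR) and -0.15 (IL6ST). IL11, which had the lowest value of the family, has no copy.

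A second set is shown because AU-rich sequences of this kind are known to mark short-lived cytokine transcripts. Capitals mark 1 copy of the 9 bases ATTTATTTA, which overlaps copies of the shorter ATTTA. Each stretch also holds another copy that overlaps the marked one and is not marked in full.
IL11, chr19:55365945-55365973, minus strand: gccagatcttATTTATTTAtttatttcag
OSMR, chr5:38935441-38935469, plus strand: tattgtcagcATTTATTTAtttatgtacc

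The 9 bases were present in the 3′ UTRs of IL11 (3 copies, at positions 44, 48 and 320) and OSMR (2 copies, at positions 2007 and 2011), and in 8.23% of the tested genes. The IL11 copies at 44 and 48 overlap, as do the OSMR copies, so each pair is a single AU-rich stretch. The shorter ATTTA was in 8 of the 9 family genes and in 75.0% of genes, IL11RA being the family gene without it. IL6, with a 3′ UTR of 429 bases, had 6 copies of ATTTA and none of the longer form.

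The libraries held 28464057 to 31688095 counts, so that 3 counts in a library correspond to 0.0944 to 0.104 CPM (counts scaled to library size with TMM factors). The silenced gene RIPK4 averaged 72.3 ± 15.9 CPM with neg.si and 19.4 ± 2.47 CPM with its siRNA (SD over 3 libraries), and so fell (log2 fold change -1.90, standard error 0.203, adjusted p = 0.0102 by edgeR). Its adjusted p was 0.0622 to 0.106 in 4 of the 6 fits that left out a library, those without neg.si replicate 2 or any single RIPK4.si replicate. The libraries differed in how counts depended on the GC content of genes. The rank correlation of a gene's level, relative to its mean over the 6 libraries, with its GC content, over 16239 genes, was 0.555 in neg.si replicate 1 and -0.547 in neg.si replicate 3, against -0.0788 to 0.165 in the other 4 libraries. The neg.si replicate 3 library lay farthest from the rest on the first principal component, and values without it, or the range over fits that each left out a library, are given beside the results. Melanocyte lineage markers were all present, with a summed level of 3547 to 3985 CPM in neg.si and 2600 to 2717 CPM in RIPK4.si, and 4 of these 7 genes had an unadjusted p under 0.05, against 10.8% of all genes. By adjusted p, 1 of the 7 was called, against 0.767% of all genes. The summed levels of leukocyte, fibroblast, keratinocyte and endothelial markers were each at most 2.58 CPM in every library. The part of the lower lineage markers in the results below was not tested, and in bulk RNA fewer cells and less RNA per cell cannot be told apart.

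LIF was by far the most abundant family transcript. Per kilobase of exon its mean level over the 6 libraries was 202 CPM, rank 129 of 24416 genes, and it held 62.3% to 81.0% of all counts of the 9 genes in a library. IL6ST followed with 15.9 CPM per kilobase, then OSMR with 7.84, IL6R with 4.40 and IL11 with 1.48. SOCS3 (0.261), IL11RA (0.240), LIFR (0.167) and IL6 (0.0320) were lowest, all in CPM per kilobase. The order is therefore led by a secreted ligand, the shared chain and the oncostatin M receptor chain. OSMR and IL6R overlapped in level across the 6 libraries, as did SOCS3 and IL11RA, and IL11RA and LIFR. The remaining neighbours did not overlap, LIF lying 12.8 times above IL6ST by their means.

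**Figure D1:**
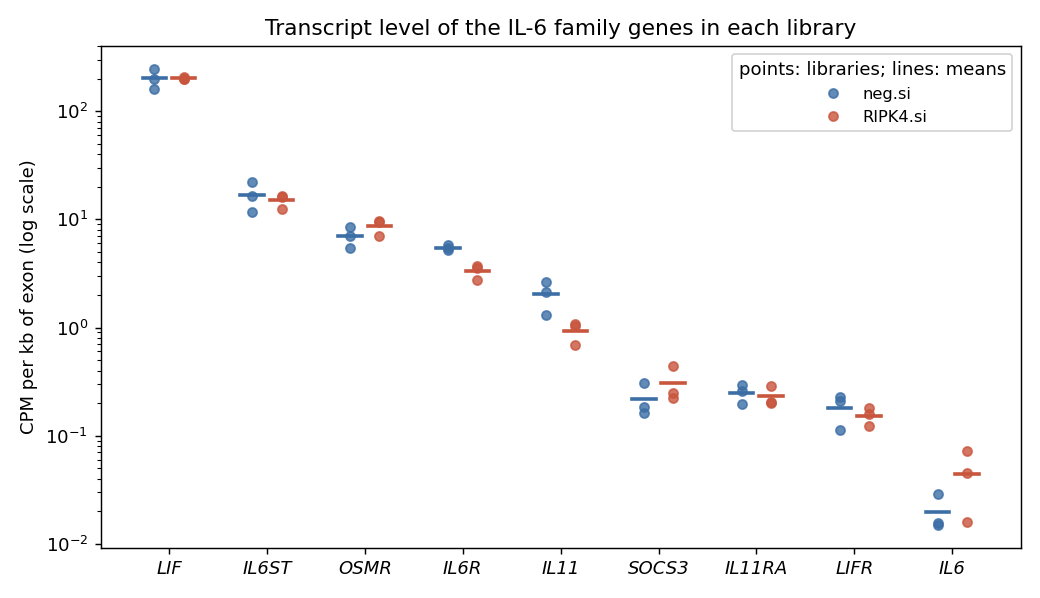
Level of the 9 IL-6 family genes in CPM per kilobase of exon, on a logarithmic axis, with a point for each library and a line for the mean of the 3 libraries of a group (blue neg.si, red RIPK4.si). LIF, at a mean of 202, stands above the others, and the groups are apart without overlap in IL6R and IL11.

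Of the 9 genes, 8 passed the filter on low counts and IL6 did not. In edgeR, with p-values adjusted by Benjamini-Hochberg over all 16297 genes tested, 0 of the 8 had an adjusted p under 0.05, against 0.767% of all genes. An unadjusted p under 0.05 was found for 2 of the 8, against 10.8% of all genes. These were IL6R and IL11, both lower in RIPK4.si, and the same 2 were the ones whose groups did not overlap, against 17.6% of all genes. DESeq2 called both at an adjusted p under 0.05, against 2.78% of the 15490 genes to which it gave an adjusted p. With each library's trend on GC content removed, edgeR called IL6R, 1 of the 8, against 3.27% of all genes. The median log2 fold change of the 8 was -0.13, beside -0.02 over all genes tested.

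**Figure D2:**
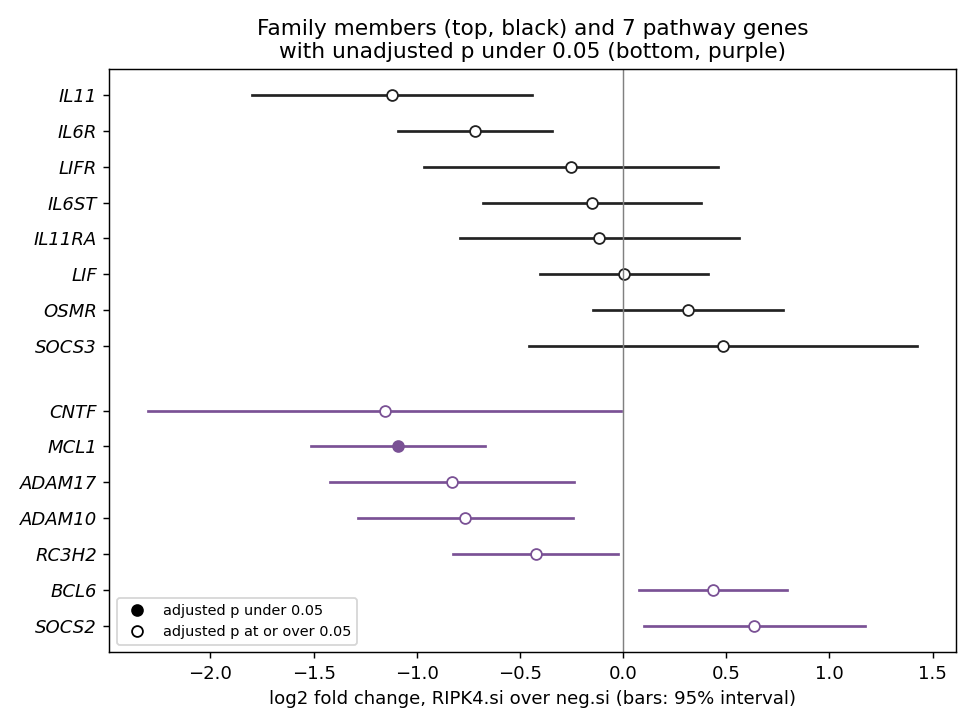
Log2 fold change of RIPK4.si over neg.si with its 95% interval, for the 8 family genes tested (black) and 7 other genes of the pathway with an unadjusted p under 0.05 (purple). Filled points have an adjusted p under 0.05 by edgeR, which holds for MCL1 and for none of the family genes.

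Among the cytokines, IL11 encodes interleukin-11, a secreted protein that acts on stromal and epithelial cells (chromosome 19, 55364382 to 55370463). It had 177, 212 and 111 counts in neg.si and 54, 80 and 89 counts in RIPK4.si, or 5.72, 7.06 and 3.49 CPM against 1.84, 2.77 and 2.86 CPM. Every RIPK4.si library lay below every neg.si library, and neg.si replicate 3 came nearest to them. On average neg.si libraries had 5.42 ± 1.80 CPM and RIPK4.si libraries 2.49 ± 0.565 CPM (SD, n = 3 each), 45.9% of the control level. This is a log2 fold change of -1.12 with a standard error of 0.302 and a 95% interval of -1.80 to -0.44. In edgeR the unadjusted p was 0.00454 and the adjusted p 0.160. DESeq2 gave an adjusted p of 0.0344, and the edgeR fit with the GC trend removed gave 0.0538. Without neg.si replicate 3 the edgeR log2 fold change was -1.35 with an adjusted p of 0.0228, and over all fits that left out a library the adjusted p reached 0.612.

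LIF, leukaemia inhibitory factor, is a secreted cytokine best known for keeping mouse embryonic stem cells undifferentiated (chromosome 22, 30240453 to 30246759). Its levels were 958, 767 and 622 CPM in neg.si and 776, 804 and 775 CPM in RIPK4.si. The RIPK4.si libraries were close together and lay inside the range of the neg.si libraries. The means were 782 ± 169 and 785 ± 16.6 CPM (SD, n = 3 each), with a log2 fold change of 0.01 (standard error 0.181, 95% interval -0.40 to 0.41, adjusted p = 0.997 by edgeR). With a library left out it ranged from -0.13 (without neg.si replicate 3) to 0.19 (without neg.si replicate 1). The interval leaves room for a difference of either sign. LIF overlaps the exons of LIF-AS1 and LIF-AS2 on the opposite strand over 2.22% and 2.14% of its exon length, and the counting did not use strand.

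IL6 encodes interleukin-6 itself, a cytokine of the acute-phase response (chromosome 7, 22725884 to 22732002). It had 2, 2 and 4 counts in neg.si and 2, 9 and 6 counts in RIPK4.si. The groups overlapped, and 3 of the 6 libraries were under the floor of 3 counts. On average neg.si libraries had 0.0857 ± 0.0348 CPM and RIPK4.si libraries 0.191 ± 0.122 CPM (SD, n = 3 each). No fold change is given at this depth. With no filter on low counts the edgeR p was 0.192 and the adjusted p 0.827. IL6 shares 428 exon bases, 9.91% of its exon length, with IL6-AS1 on the opposite strand, and the counting did not use strand. Whether any of these few counts came from the shared bases was not tested.

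Among the chains that bind a single ligand, IL6R encodes the IL-6 receptor, present on the cell surface and, after cleavage or splicing, as a soluble form (chromosome 1, 154405193 to 154469450). It had 1127, 1148 and 1278 counts in neg.si and 760, 557 and 769 in RIPK4.si, or 36.4, 38.2 and 40.2 CPM against 25.9, 19.3 and 24.7 CPM. The groups were well apart, and the neg.si libraries differed little among themselves. On average neg.si libraries had 38.3 ± 1.92 CPM and RIPK4.si libraries 23.3 ± 3.53 CPM (SD, n = 3 each), 60.9% of the control level. This is a log2 fold change of -0.72 with a standard error of 0.166 and a 95% interval of -1.09 to -0.34. In edgeR the unadjusted p was 0.0018 and the adjusted p 0.105. The adjusted p was 0.0115 with DESeq2 and 0.0314 with the GC trend removed. With a library left out it lay between 0.0784 and 0.461, and the log2 fold change between -0.79 and -0.59. IL6R-AS1 lies on the opposite strand within IL6R but shares 0 exon bases with it.

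IL11RA, the chain that binds IL-11, was expressed at a low level (chromosome 9, 34650702 to 34661892). It had 42, 31 and 49 counts in neg.si and 44, 31 and 33 in RIPK4.si. The groups overlapped almost fully, at 1.31 ± 0.258 and 1.21 ± 0.250 CPM (SD, n = 3 each). The log2 fold change was -0.12 (standard error 0.30, 95% interval -0.79 to 0.56, adjusted p = 0.961 by edgeR). Omitting 1 library at a time gave -0.29 to 0.021, the latter without neg.si replicate 3. A readthrough gene annotated on the same strand shares 32.5% of the exon length of IL11RA and is not among the genes of the table. How reads in the shared bases were counted was not tested.

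Among the signalling chains, IL6ST encodes gp130 (chromosome 5, 55935095 to 55995022). Its levels were 140, 197 and 267 CPM in neg.si and 149, 196 and 198 CPM in RIPK4.si. The RIPK4.si libraries lay inside the range of neg.si, whose libraries differed widely among themselves. The means were 201 ± 63.6 and 181 ± 27.5 CPM (SD, n = 3 each), with a log2 fold change of -0.15 (standard error 0.234, 95% interval -0.68 to 0.38, adjusted p = 0.916 by edgeR). The value ranged over left-out libraries from -0.34 (without neg.si replicate 1) to 0.11 (without neg.si replicate 3).

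LIFR, the chain that pairs with gp130 for LIF, had 42, 76 and 87 counts in neg.si and 56, 63 and 46 in RIPK4.si (chromosome 5, 38474668 to 38608354). The groups overlapped, at 2.21 ± 0.745 and 1.86 ± 0.354 CPM (SD, n = 3 each). The log2 fold change was -0.25 (standard error 0.317, 95% interval -0.96 to 0.46, adjusted p = 0.888 by edgeR). Over fits that each left out a library it ranged from -0.49 (without neg.si replicate 1) to -0.061 (without neg.si replicate 3). With LIF at 202 CPM per kilobase and LIFR at 0.167, the ligand transcript was among the most abundant in these cells and that of its own receptor chain among the least of the family.

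OSMR, the chain that pairs with gp130 for oncostatin M, had 38.9, 50.1 and 61.4 CPM in neg.si and 67.6, 50.3 and 69.0 CPM in RIPK4.si (chromosome 5, 38845858 to 38945596). A pair of RIPK4.si libraries lay above all of neg.si and the other lay within it. The means were 50.1 ± 11.2 and 62.3 ± 10.4 CPM (SD, n = 3 each), with a log2 fold change of 0.31 (standard error 0.204, 95% interval -0.15 to 0.77, adjusted p = 0.695 by edgeR). With the GC trend removed the unadjusted p was 0.0424 and the adjusted p 0.287. The log2 fold change ranged from 0.18 (without neg.si replicate 1) to 0.49 with a library left out (the latter without neg.si replicate 3, edgeR adjusted p = 0.251). OSMR shares 3.19% of its exon length with RICTOR on the opposite strand.

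SOCS3, the inhibitor that STAT3 induces, had 26, 15 and 14 counts in neg.si and 18, 35 and 21 in RIPK4.si (chromosome 17, 78356778 to 78360077). The groups overlapped, at 0.593 ± 0.215 and 0.833 ± 0.329 CPM (SD, n = 3 each). The log2 fold change was 0.49 (standard error 0.417, 95% interval -0.45 to 1.42, adjusted p = 0.807 by edgeR). It ranged over left-out libraries from 0.13 (without RIPK4.si replicate 2) to 0.84 (without neg.si replicate 1), and it was 0.31 when neg.si replicate 3 was omitted. The 95% interval was the widest of the 8 genes and leaves room for a difference of either sign.

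The ratio of IL6R to IL6ST was compared because both counts come from the same library. IL6R counts were 26.0%, 19.4% and 15.1% of IL6ST counts in neg.si and 17.3%, 9.84% and 12.5% in RIPK4.si. The highest RIPK4.si value lay above the lowest neg.si value, so the groups overlapped in these unadjusted values. The log2 ratio was lower by a mean of 0.61 in RIPK4.si (a difference of -0.61, two-sided exact permutation p = 0.2, the smallest p possible with 3 against 3 being 0.1).

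The spread among the neg.si libraries went with the GC content of most of the family genes. Between neg.si replicate 1 and neg.si replicate 3 the log2 ratio of CPM was 0.93 for SOCS3, 0.71 for IL11 and 0.62 for LIF, whose transcripts have a GC content of 60.0%, 56.3% and 57.1%. It was -1.01 for LIFR, -0.93 for IL6ST and -0.66 for OSMR, with a GC content of 37.1%, 36.5% and 45.1%. IL6R, at 51.2% GC, had a ratio of -0.14, and its neg.si libraries were the most alike of the family. IL11RA differed from the other GC-rich genes, with a ratio of -0.19 at 54.9% GC, which was -0.52 after removal of the trend. With the GC trend removed, the SD of log2 CPM over neg.si went from 0.312 to 0.0877 for LIF and from 0.466 to 0.178 for IL6ST. For IL6R it went from 0.0724 to 0.129 and for IL11RA from 0.296 to 0.399. The source of this trend was not tested.

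**Figure D3:**
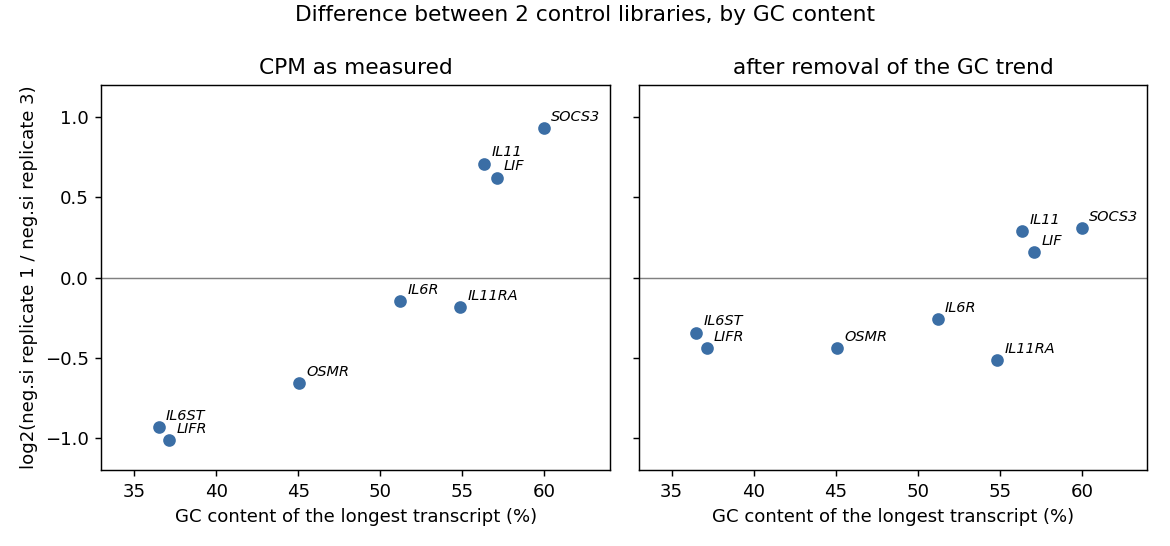
Log2 ratio of neg.si replicate 1 over neg.si replicate 3 for the 8 tested family genes against the GC content of their longest transcript, before (left) and after (right) removal of each library's GC trend. Before removal the values run from -1.01 for LIFR to 0.93 for SOCS3, and after it from -0.52 for IL11RA to 0.31 for SOCS3.

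The other genes of the pathway were taken as 7 lists of 53 genes, of which 50 were in the table and 42 were tested. By edgeR, 2 of the 42 fell at an adjusted p under 0.05, MCL1 among them, and 0 rose, against 0.767% of all genes called in either direction. An unadjusted p under 0.05 was found for 8 of the 42, 6 lower and 2 higher in RIPK4.si, against 10.8% of all genes. The groups did not overlap in 8 of the 42, against 17.6% of all genes. The median log2 fold change of the 42 was -0.07, beside -0.02 over all genes.

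Among the other ligands of the family, CNTF, a neurotrophic cytokine, had 0.970 ± 0.450 CPM in neg.si and 0.431 ± 0.222 CPM in RIPK4.si (SD, n = 3 each), a log2 fold change of -1.15 with an adjusted p of 0.455 by edgeR, in a range of -1.63 to -0.86 with a library left out. CNTF shares 38.5% of its exon length with a readthrough gene.

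OSM, the gene of oncostatin M, and CNTFR, the CNTF receptor chain, did not pass the filter and are named outside the rule for genes, after their values were seen. OSM had 5, 7 and 0 counts in neg.si and 0, 2 and 0 in RIPK4.si. CNTFR had 19, 7 and 22 counts in neg.si and 2, 8 and 5 in RIPK4.si. The receptor chain IL27RA was the only other receptor gene tested, with a log2 fold change of -0.39 and an adjusted p of 0.594 by edgeR (-0.57 to -0.20 with a library left out). The transcript of oncostatin M was thus near the floor, while that of its receptor chain OSMR averaged 7.84 CPM per kilobase.

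ADAM10 and ADAM17 are the proteases that cut IL-6R from the cell surface. ADAM10 had 329, 389 and 567 CPM in neg.si and 294, 200 and 262 CPM in RIPK4.si, and the groups did not overlap. The log2 difference was -0.76 (standard error 0.231, adjusted p = 0.219 by edgeR, 0.0544 by DESeq2 and 0.0448 with the GC trend removed). With a library left out the difference ranged from -0.91 to -0.51, the latter without neg.si replicate 3. ADAM17 had 49.5, 67.8 and 86.8 CPM in neg.si and 43.8, 25.8 and 45.1 CPM in RIPK4.si, again without overlap. The log2 difference was -0.83 (standard error 0.263, adjusted p = 0.241 by edgeR, 0.0651 by DESeq2 and 0.0593 with the GC trend removed), in a range of -0.998 to -0.602 with a library left out. Both proteases were lower beside their substrate IL6R, at 58.8% and 56.2% of the control mean, without passing the adjusted threshold in the 6-library edgeR fit. ADAM17 shares 10.3% of its exon length with IAH1 on the opposite strand.

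The 7 JAK kinases and STAT factors had log2 fold changes from -0.08 (JAK2) to 0.25 (TYK2), and none had an unadjusted p under 0.05. With a library left out JAK2 ranged from -0.30 to 0.21, TYK2 from 0.079 to 0.43 and STAT3 from -0.14 to 0.084. Their lowest unadjusted p was 0.227 (adjusted p = 0.769 by edgeR). STAT3, named after its values were seen, had 78.2 ± 5.10 CPM in neg.si and 74.8 ± 13.04 CPM in RIPK4.si (SD, n = 3 each, log2 fold change -0.06, adjusted p = 0.961 by edgeR). Among the 6 other inhibitors tested, SOCS2, which acts mainly on growth hormone signalling, had 10.6 ± 1.77 CPM in neg.si and 16.4 ± 4.65 CPM in RIPK4.si (log2 fold change 0.64, adjusted p = 0.346 by edgeR, 0.42 to 0.84 with a library left out). The other 5 had unadjusted p-values over 0.05.

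Of the 14 STAT3 targets and acute-phase genes tested, 1 fell and 0 rose, against 0.767% of all genes called. MCL1 encodes an anti-apoptotic protein of the BCL2 family and is under many controls besides STAT3 (chromosome 1, 150574551 to 150579738). It had 230, 279 and 368 CPM in neg.si and 135, 133 and 143 CPM in RIPK4.si, with no overlap. MCL1 fell by 1.09 on the log2 scale (standard error 0.187, adjusted p = 0.0397 by edgeR and 3.79e-05 by DESeq2). Leaving out a library gave adjusted p-values from 0.0176 to 0.251, over 0.05 without neg.si replicate 2 or any single RIPK4.si replicate. The 3′ UTR of MCL1 holds 3 copies of ACAGCTT. Among the other pathway genes, single copies are in ADAM10 (log2 fold change -0.76), SOCS2 (0.64), PIAS1 (-0.08) and the untested IL31RA. BCL6, a transcriptional repressor, had 26.1 ± 0.564 CPM in neg.si and 35.2 ± 4.85 CPM in RIPK4.si (SD, n = 3 each), without overlap, at a log2 fold change of 0.43 and an adjusted p of 0.336 by edgeR. With a library left out its log2 fold change ranged from 0.35 to 0.54. The median of the list was 0.08 on the log2 scale.

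Regulators of IL6 mRNA stability gave 8 tested genes and none with an adjusted p under 0.05. RC3H2, a Roquin protein that binds stem-loops in cytokine transcripts, had 91.0 ± 19.0 CPM in neg.si and 67.8 ± 2.96 CPM in RIPK4.si (SD, n = 3 each, log2 fold change -0.42, adjusted p = 0.421 by edgeR, and -0.56 to -0.28 with a library left out). The list ranged from -0.42 (RC3H2) to 0.17 (ELAVL1) on the log2 scale, and with a library left out ELAVL1 ranged from -0.042 to 0.31.

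**Figure D4:**
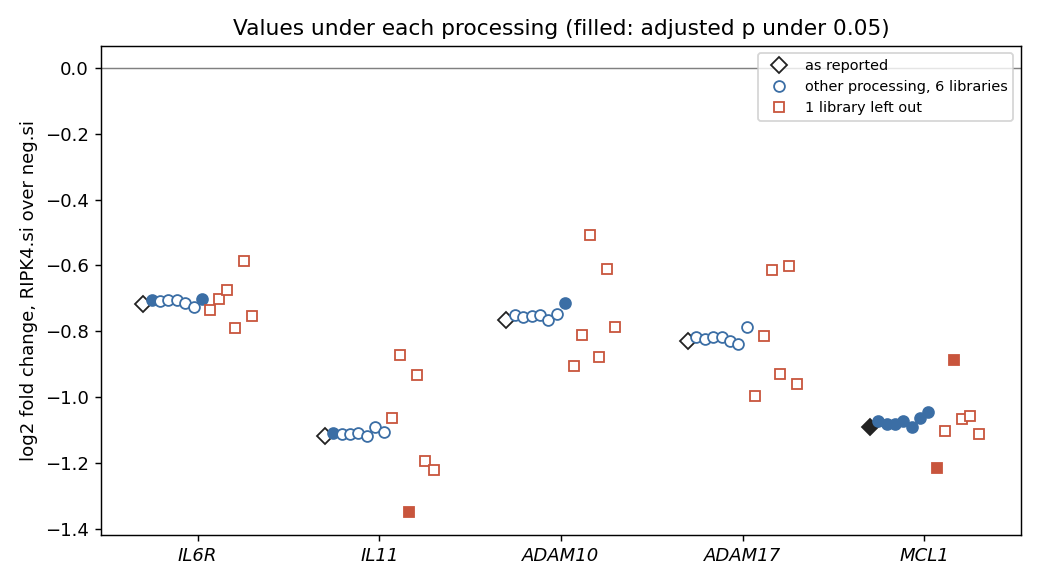
Log2 fold change of RIPK4.si over neg.si for IL6R, IL11, ADAM10, ADAM17 and MCL1 under the reported fit (black diamonds), other processing of the 6 libraries (blue circles) and with 1 library left out (red squares). Filled symbols have an adjusted p under 0.05, all values are below 0, and for IL6R they lie between -0.79 and -0.59.

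The genes whose levels ran most like each family gene across the 6 libraries were found among 13005 protein-coding genes, by the root-mean-square (RMS) difference of log2 CPM after centring. This is a description of 6 libraries that share 2 conditions and the GC trend. For IL6R they were CEP85 (RMS difference 0.0533), KIAA1549 (0.0585) and SORT1 (0.0602). For IL11 they were LYPD5 (0.0977), ADAMTS2 (0.157) and FGFRL1 (0.182). IL11 itself varied more across the libraries (SD of log2 CPM 0.705, against 0.425 for IL6R). The RMS differences of the 2 genes therefore do not compare how closely each was matched. LIF ran with PKIG (0.0225), SH3GLB2 (0.0269) and APOBEC3F (0.0288), and IL6ST with LYSMD3 (0.0464) and EIF3J (0.0521). OSMR ran with PPM1K (0.0300), CBLB (0.0415) and RHOJ (0.0449). The 3 nearest to IL11RA were IL12A (0.0413), PCGF1 (0.0820) and UPF3B (0.0825). For LIFR they were NLRC4 (0.130), ADAMTS3 (0.138) and AOC2 (0.141), and for SOCS3 DUS3L (0.0977), SH2D5 (0.112) and LAD1 (0.113).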

How the data were processed

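Poly(A) RNA from 6 libraries was sequenced on the DNBSEQ platform. Reads were trimmed by the authors (cutadapt) and mapped to GRCh38.p13 using TopHat. They deposited the counts of read pairs per gene, made with HTSeq without strand. The deposited signal columns hold these counts divided by DESeq2 size factors, and the deposited fold, ratio, log2 and p-value columns hold the authors' own comparison. Neither set was used.

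Counts were tested in edgeR 4.0.16 (R 4.3.3, TMM, filterByExpr, quasi-likelihood test, condition only), which left 16297 genes, with Benjamini-Hochberg adjustment at 0.05. The scripts were tested on simulated counts. Alternatives were DESeq2 1.42.0, other scalings and filters, the replicate number as a block, removal of each library's GC trend (lowess, span 0.3) and each library left out. Totals were 28464057 to 31688095 counts. Gene models came from GENCODE release 44, which held 24416 of the 24526 identifiers, 19683 with the same coordinates. Levels per kilobase used all annotated exons.

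The family genes, lists and motifs were chosen with earlier results of these data known. Genes named were the family, RIPK4, pathway genes with an unadjusted p under 0.05 and the 3 protein-coding genes nearest to each tested family gene. Others are marked in the text, and a few genes that the rule names are not reported here. Each p-value measures only the spread between these libraries.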

Additional observations from a re-analysis of the deposited data

How the results depend on the processing

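The count of genes called by edgeR, 125, became 430 with DESeq2, 533 with the GC trend removed and 0 to 295 with a library left out. The 0 came without neg.si replicate 2, RIPK4.si replicate 1 or RIPK4.si replicate 3, where edgeR gave 1153, 1426 and 1086 genes an unadjusted p under 0.05, and the 295 when neg.si replicate 3 was omitted. Omitting neg.si replicate 1 gave 70 and omitting RIPK4.si replicate 2 gave 4. Family genes called went from 0 to 2 with DESeq2, 1 with the GC trend removed and 0 to 1 with a library left out, the 1 being IL11 without neg.si replicate 3. Pathway genes called went from 2 to 1 with at least 10 counts in every library and 0 to 2 with a library left out, and to 3 with the GC trend removed, ADAM10 being added. Log2 fold changes that passed the threshold only in an alternative included -1.11 for IL11 with DESeq2, -1.35 for IL11 when neg.si replicate 3 was omitted, -0.70 for IL6R with both DESeq2 and the GC trend removed, and -0.71 for ADAM10 with the GC trend removed. With a library left out they ranged from -2.06 to -1.74 for RIPK4, -1.35 to -0.87 for IL11, -0.13 to 0.19 for LIF, -0.29 to 0.021 for IL11RA, -0.34 to 0.11 for IL6ST, -0.49 to -0.061 for LIFR, 0.18 to 0.49 for OSMR and 0.13 to 0.84 for SOCS3. Among those, LIF changed sign when neg.si replicate 3 (-0.13) or RIPK4.si replicate 2 (-0.0043) was omitted, and IL11RA (0.021) and IL6ST (0.11) without neg.si replicate 3. The cause was not tested.

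The replicate numbers were not taken to pair the libraries, since same-numbered libraries correlated at -0.242, 0.251 and 0.346 in their deviations from the group means, and neg.si replicate 1 correlated best with RIPK4.si replicate 2. With the replicate block edgeR called 131 genes and 0 of the family, and IL6R had a log2 fold change of -0.73 (adjusted p = 0.123). Depth limits IL6, and to a lesser degree SOCS3, IL11RA and LIFR, which had under 100 counts in every library.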
